A study of Mus musculus with 6 samples.

Results

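The mitochondrial carriers of the Slc25 family were examined in bulk RNA-Seq of gastrocnemius/plantaris (GP) muscle. Members were all genes in the count tables whose symbol begins with Slc25a followed by a digit, which gave 47 of the 24421 genes listed. By the labels and the study's methods, Ctrl stands for Net39 fl/fl mice without Cre (3 libraries) and cKO for Net39 fl/fl mice carrying HSA-CreERT2 (3 libraries), a tamoxifen-inducible Cre driven by the human skeletal actin promoter and thus active in skeletal muscle fibres but not in the other cells of the muscle. The labels give the strain background of both groups as B6C3F1, while by the study's methods the floxed allele was made in B6C3F1 zygotes and its founders were then bred to C57BL/6N. Both groups received tamoxifen, and all mice were males of 5 months of age, 3 months after tamoxifen. Each library was made from the whole muscle of 1 mouse, so other cells of the tissue contribute RNA, and in such bulk samples fewer cells of a type and less RNA per cell cannot be told apart.

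Net39 is a muscle nuclear envelope protein, and its gene, listed as Ppapdc3, went against the labels. In CPM, each gene's counts as a share of the library's total scaled with TMM factors, Ppapdc3 stood at 7.92, 7.75 and 5.93 in Ctrl 1, 2 and 3 and at 151, 113 and 138 in cKO 1, 2 and 3. It was higher in cKO-labelled libraries (log2 fold change 4.22, SE 0.17, adjusted p = 0.000161, edgeR's quasi-likelihood test). The groups are therefore called by their labels throughout, each fold change sets cKO-labelled over Ctrl-labelled libraries, and no direction here should be read as an effect of losing Net39. Whether the labels of the groups were exchanged cannot be told from the counts, and if they were, every direction given here would turn. Total counts were 33860001 to 38201728 in Ctrl-labelled libraries and 39191239 to 48839910 in cKO-labelled ones, of which the members took 0.577 to 0.709%. Skeletal muscle markers were abundant in every library, at a summed 60290 to 61719 CPM in Ctrl-labelled libraries and 63267 to 83422 CPM in cKO-labelled ones. The 4 globin genes checked are listed at 0 in every library, while the other erythroid marker, Alas2, stood at 3.97 to 8.76 CPM. Why the globins are at 0 was not tested, so these zeros do not show that blood RNA was absent.

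Carriers of this family sit in the inner mitochondrial membrane, with a few in peroxisomes or the outer membrane, and move nucleotides, phosphate, amino acids, carboxylates, cofactors and iron between the cytosol and the matrix. In muscle the best known is the adenine nucleotide translocase, which exports ATP made by oxidative phosphorylation in exchange for ADP. The carrier fold is built from repeats of one module, and each repeat is marked by a short signature that begins with a proline, followed by an acidic and then a basic residue.

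The signature shows the kinship of the members in the sequence itself. In the longest coding sequences of GENCODE M21, a search for proline, any residue, an acidic residue, 2 of any residue and then lysine or arginine found 3 signatures in 27 members, 2 in 12, 1 in 5 and 0 in 3 (Slc25a46, Slc25a51 and Slc25a53). The coding sequences hold 265 to 677 residues (median 318), and 7 members exceed 400 residues. Windows around the signatures are given for the pair of adenine nucleotide carriers on which the comparison turns, with the 18 bases of the signature in capitals and 12 flanking bases on each side.
Slc25a4, signature 1: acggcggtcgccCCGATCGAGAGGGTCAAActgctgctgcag
Slc25a5, signature 1: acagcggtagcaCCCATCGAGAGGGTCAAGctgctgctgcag
Slc25a4, signature 2: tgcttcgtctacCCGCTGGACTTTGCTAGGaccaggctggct
Slc25a5, signature 2: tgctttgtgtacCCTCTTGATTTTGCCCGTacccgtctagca
Slc25a4, signature 3: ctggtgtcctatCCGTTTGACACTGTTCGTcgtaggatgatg
Slc25a5, signature 3: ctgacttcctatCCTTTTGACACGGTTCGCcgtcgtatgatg
The signatures begin at residues 28, 133 and 230 in both genes. Slc25a4 and Slc25a5 share 267 of 298 aligned residues (89.6%) but 77.4% of their coding bases, and no stretch of 75 bases of the Slc25a4 transcript occurs in a transcript of another gene. Of Slc25a5, 27.9% of such stretches also occur in transcripts of 6 other genes, among them the pseudogene Slc25a5-ps, so its counts are less certain, while 40 members share no such stretch. The share was 9.76% for Slc25a36, 8.98% for Slc25a40, 7.51% for Slc25a37 and 2.84% for Slc25a3.

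The same signature is shown for the first repeat of the aspartate-glutamate carrier Slc25a12 and of Slc25a25 and Slc25a24, calcium-activated carriers of ATP-Mg and phosphate that moved in opposite directions.
Slc25a12, signature 1: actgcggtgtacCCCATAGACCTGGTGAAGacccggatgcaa
Slc25a25, signature 1: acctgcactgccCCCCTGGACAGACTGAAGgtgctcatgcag
Slc25a24, signature 1: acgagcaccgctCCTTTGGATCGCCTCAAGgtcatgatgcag
In these longer proteins the first signature begins at residue 346, 251 and 214, after an extra N-terminal part that binds calcium.

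Of the 47 members, 40 passed the expression filter and 7 did not. Slc25a2, Slc25a21, Slc25a31, Slc25a41, Slc25a43, Slc25a48 and Slc25a54 had 0 to 9 counts in a library and were not tested. Slc25a31, the testis form of the adenine nucleotide carrier, had 0 to 3 counts, and the testis markers summed to at most 0.295 CPM.

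The levels of the members spanned several orders of magnitude. On the scale of reads per kilobase of exon and per library size (RPKM, TMM-scaled), Slc25a4 came first with a mean of 1615 over the 6 libraries. It was followed by the phosphate carrier Slc25a3 at 192, the oxoglutarate carrier Slc25a11 at 133 and the aspartate-glutamate carrier Slc25a12 at 76.7. Slc25a5 at 27.0, the carnitine-acylcarnitine carrier Slc25a20 at 19.4, Slc25a39, a carrier required for mitochondrial glutathione, at 18.6, Slc25a25 at 15.7, the NAD carrier Slc25a51 at 15.5 and Slc25a46, a carrier relative of the outer membrane, at 13.0 completed the 10 highest. The steps from Slc25a39 to Slc25a51 are small, and Slc25a25 in particular ranged widely between libraries, so this part of the order is not firm. Slc25a4 alone held 69.1% ± 0.871 (SD, n = 3) of the members' summed RPKM in Ctrl-labelled libraries and 73.8% ± 0.970 in cKO-labelled ones.

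**Figure D1:**
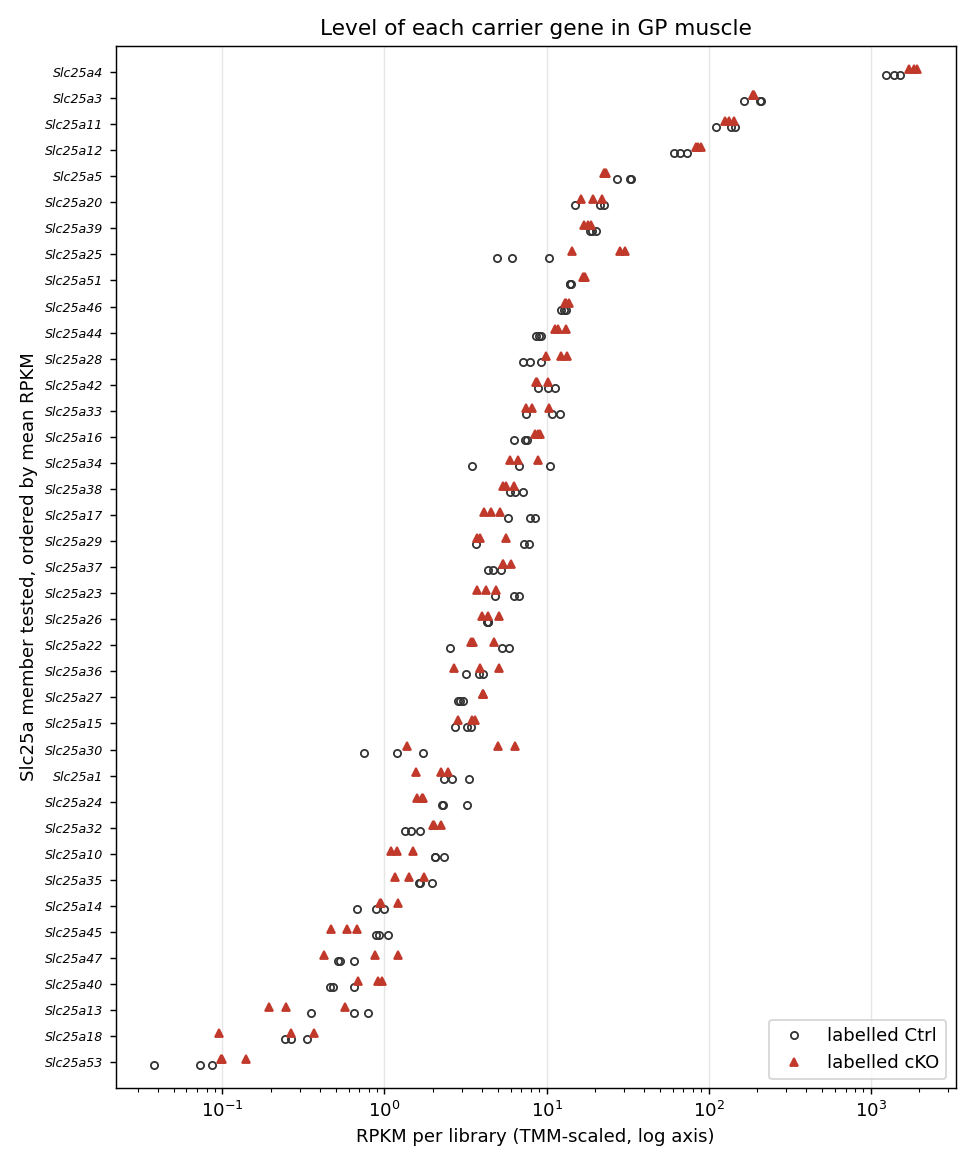
Level of 39 of the tested carrier genes in each library, as TMM-scaled RPKM on a log axis, ordered from the highest mean to the lowest (circles, labelled Ctrl; triangles, labelled cKO). Slc25a4 stands at a mean of 1615, above Slc25a3 at 192, and the circles and triangles of Slc25a25 and Slc25a30 are the most widely spread across the 6 libraries among the members above an RPKM of 1.

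At an adjusted p under 0.05 in edgeR's quasi-likelihood test, 15 of the 40 members tested were called (37.5%), against 24.4% of all 14180 genes tested. 10 were higher in cKO-labelled libraries (25%, against 12.6% of all genes) and 5 were higher in Ctrl-labelled ones (12.5%, against 11.8%). The median log2 fold change of the members was 0.05 and that of all genes -0.015, with 22 members above 0 and 18 below. Only Slc25a25 was called with a fold change over 2 in the cKO-labelled libraries, where 2.13% of all genes were, and 0 members were in Ctrl-labelled ones, where 3.92% of all genes were (edgeR; 19 members had an unadjusted p under 0.05 in either direction, and DESeq2 gave 2 members past both limits). The libraries of the labelled groups did not overlap for 18 members (45%), a share close to the 43.9% of all genes tested. The direction of the 15 called genes was the same under each scaling, but scaling by total counts in place of TMM called 2 members higher in cKO-labelled libraries and 9 higher in Ctrl-labelled ones, with the median of all genes at -0.27 and with 673 of all genes called in the first direction and 4074 in the second. Of the 10 calls higher in cKO-labelled libraries, that scaling lost 8, and Slc25a25 was kept.

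These calls rested on few mice. Leaving out 1 library kept 4 of the 15 without Ctrl 1, 6 without Ctrl 2, 12 without Ctrl 3, 5 without cKO 1, 13 without cKO 2 and 4 without cKO 3. Slc25a10 and Slc25a27 were among those called in all 6 of these fits. Fibre-type markers differed between the labels as well. The 8 slow-fibre markers summed to 14598, 8657 and 8481 CPM in Ctrl-labelled libraries and 2001, 3873 and 446 CPM in cKO-labelled ones. Of these 8, 3 were called higher in Ctrl-labelled libraries (37.5%, against 11.8% of all genes). With 1 library left out, Atp2a2 kept its call in 3 of 6 fits and Myl2 and Tnnt1 in 2. All 4 fast IIb markers were called higher in cKO-labelled libraries (100%, against 12.6% of all genes). Mylk2 was called in all 6 of these fits, Pvalb in 4, and Actn3 and Myh4 in 3. With log2 CPM of the slow myosin gene Myh7 as a covariate, 0 members were called (edgeR; 8 had an unadjusted p under 0.05), as against 57 of all genes, and the 15 kept their direction. The covariate takes 1 of 4 residual degrees of freedom. With it, the log2 fold changes were 0.48 for Slc25a27, 0.49 for Slc25a44, 0.30 for Slc25a51, -0.43 for Slc25a5 and -0.67 for Slc25a24. Each of these was within 0.1 of the value without the covariate. The log2 fold changes of the other called members were smaller in size under it. That of Slc25a25 went from 1.77 to 1.34, that of Slc25a10 from -0.76 to -0.50 and that of Slc25a28 from 0.55 to 0.34. Slc25a12 went from 0.36 to 0.26, Slc25a16 from 0.32 to 0.21 and Slc25a32 from 0.50 to 0.39. Slc25a40 went from 0.69 to 0.54, Slc25a17 from -0.69 to -0.57 and Slc25a45 from -0.73 to -0.61. Immune markers differed too, with 3 of 5 tested called higher in Ctrl-labelled libraries (60%, against 11.8% of all genes). With 1 library left out, Lyz2 was called in all 6 fits, Cd68 in 2 and Adgre1 in 1. Their summed levels with the other immune markers were 97.8 to 114 CPM in Ctrl-labelled libraries and 39.3 to 60.3 CPM in cKO-labelled ones. Adipocyte markers summed to 196.8 to 247 and 199.8 to 249 CPM, and endothelial markers to 342 to 360 and 308 to 337 CPM. The part of fibre type and of immune cells in the carrier results below was not tested beyond that covariate.

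**Figure D2:**
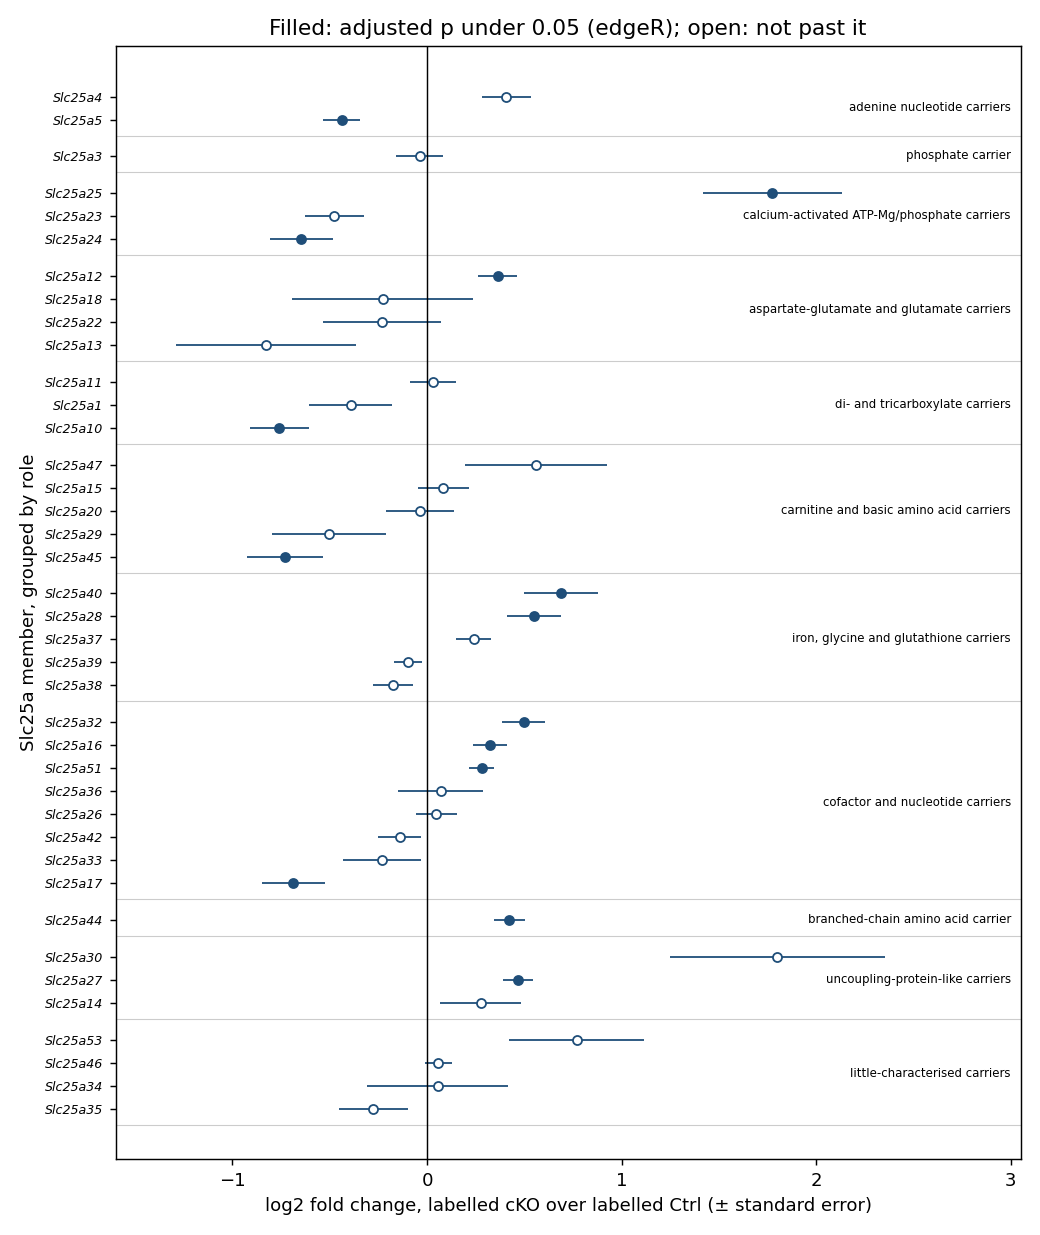
Log2 fold change, labelled cKO over labelled Ctrl, with its standard error for 39 of the tested members grouped by role (filled, adjusted p under 0.05 in edgeR; open, not past it). Filled points stand on both sides of 0, 9 to the right and 5 to the left, and within the calcium-activated carriers Slc25a25 and Slc25a24 stand on opposite sides.

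The adenine nucleotide carriers exchange cytosolic ADP for matrix ATP. Slc25a4, on chromosome 8 of GRCm38 (mm10) from 46206797 to 46211284 on the minus strand, encodes the form of heart and skeletal muscle. It had 3294, 3589 and 2919 CPM in Ctrl-labelled libraries and 4346, 4077 and 4569 CPM in cKO-labelled ones. On this TMM scale every library labelled cKO was above every library labelled Ctrl, yet the difference missed the threshold narrowly (log2 fold change 0.41, SE 0.13, adjusted p = 0.0546, edgeR). DESeq2 and edgeR's robust fit placed Slc25a4 past it, 2 of 15 alternatives, and 0 of the 6 fits that leave out 1 library did so (adjusted p of up to 0.205). Under total counts its log2 fold change was 0.15 (adjusted p = 0.335, edgeR), and with the Myh7 covariate it was 0.28 (adjusted p = 0.557, edgeR). As a share of total counts the groups overlapped, with cKO 1 (153988 of 40973347 counts) below Ctrl 2 (148746 of 38201728).

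Slc25a5 encodes the form of most other and of dividing tissues, on chromosome X from 36795651 to 36798807 on the plus strand. It had 54.2, 54.8 and 44.5 CPM in Ctrl-labelled libraries and 38.4, 37.4 and 37.6 CPM in cKO-labelled ones. The groups did not overlap, and the 3 cKO-labelled libraries lay close together. Slc25a5 was higher in Ctrl-labelled libraries (log2 fold change -0.44, SE 0.09, adjusted p = 0.0175, edgeR), although 4 of the 6 fits that leave out 1 library lost this call, with an adjusted p of up to 0.068. Expressed per length, the ratio of Slc25a4 to Slc25a5 was 44.7 ± 1.91 (SD, n = 3) in Ctrl-labelled libraries and 80.2 ± 4.47 in cKO-labelled ones, a 1.79-fold difference with no overlap between the groups (exact permutation test, two-sided, p = 0.1, the smallest that 3 against 3 allows). This ratio was computed after the values had been seen. As a share of the summed RPKM of the adenine nucleotide carriers, Slc25a4 held 97.8% ± 0.095 and 98.8% ± 0.067.

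Slc25a3 brings in the phosphate that ATP synthase needs. It had 1155, 1161 and 915 CPM in Ctrl-labelled libraries and 1038, 1061 and 1047 CPM in cKO-labelled ones, and the groups overlapped (log2 fold change -0.04, SE 0.12, adjusted p = 0.838, edgeR). The sign of this small value turned positive without Ctrl 1 or Ctrl 2. The TMM-scaled summed RPKM of all members was 2009 ± 206 (SD, n = 3) in Ctrl-labelled libraries and 2494 ± 110 in cKO-labelled ones, without overlap (exact permutation test, two-sided, p = 0.1), a sum computed after the values had been seen. The TMM factors themselves split by label, at 1.11, 1.09 and 1.08 in Ctrl-labelled libraries and 0.865, 0.983 and 0.901 in cKO-labelled ones. As a share of total counts, without these factors, the members overlapped between the groups. They took 0.690, 0.709 and 0.577% in Ctrl-labelled libraries and 0.640, 0.694 and 0.692% in cKO-labelled ones. Without Slc25a4 the summed RPKM values were 620 ± 67.0 and 654 ± 6.18 and overlapped (exact permutation test, two-sided, p = 0.9). The difference of this remainder, 33.4, turned to -79.4 under total counts and to -5.20 without Ctrl 3.

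The calcium-activated carriers exchange ATP-Mg for phosphate and set the size of the adenine nucleotide pool in the matrix. Slc25a25, on chromosome 2 from 32414487 to 32451445 on the minus strand, had 80.9, 48.3 and 38.8 CPM in Ctrl-labelled libraries and 223, 112 and 239 CPM in cKO-labelled ones. The lowest library labelled cKO, cKO 2, was above the highest labelled Ctrl, but each group spread by over 2-fold between its own lowest and highest library. Slc25a25 was 3.42-fold higher in cKO-labelled libraries (log2 fold change 1.77, SE 0.36, adjusted p = 0.0145, edgeR). The call was lost without Ctrl 2, cKO 1 or cKO 3, with an adjusted p of up to 0.0561, while the log2 fold change stayed between 1.56 and 2.14. The gene lies 303667 bases from Ppapdc3 on the same chromosome.

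Its paralog Slc25a24 had 7.92, 7.82 and 11.2 CPM in Ctrl-labelled libraries and 5.42, 5.92 and 5.82 CPM in cKO-labelled ones. All Ctrl-labelled libraries were above all labelled cKO, and the gene was higher in the former (log2 fold change -0.65, SE 0.16, adjusted p = 0.028, edgeR), with the call lost in 3 of the 6 fits that leave out 1 library and an adjusted p there of up to 0.0824. The third tested paralog, Slc25a23, ranged from 25.4 to 35.6 CPM in Ctrl-labelled libraries and from 19.8 to 25.9 CPM in cKO-labelled ones (log2 fold change -0.48, adjusted p = 0.0589, edgeR). It was called higher in Ctrl-labelled libraries under total counts (log2 fold change -0.73, adjusted p = 0.0214, edgeR), by DESeq2, with mouse number as a block and without Ctrl 3 or cKO 2. The 3 paralogs share 57.6 to 60.4% of aligned residues and no stretch of 75 bases.

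Promoter windows of 250 bases before the annotated start were taken from RefSeq (GRCm38.p6), where 36 members matched with 46 windows. Windows are shown for Slc25a25, the called member with the largest fold change, and Slc25a5, the called adenine nucleotide carrier, and neither window overlaps an annotated exon. Slc25a25 has 3 annotated starts, and its most downstream window, chr2:32424067-32424316 on the minus strand, holds a cAMP response element (CRE, TGACGTCA, in capitals with a CCAAT box and a GC box) that begins 150 bases before the start.
Slc25a25, start 3: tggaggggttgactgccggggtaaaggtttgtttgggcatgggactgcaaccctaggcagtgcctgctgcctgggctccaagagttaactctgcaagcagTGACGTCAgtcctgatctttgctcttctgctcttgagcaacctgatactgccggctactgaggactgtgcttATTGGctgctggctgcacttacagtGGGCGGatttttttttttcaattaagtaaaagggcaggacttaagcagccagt
Slc25a5, on the other hand, has a single window, chrX:36795347-36795596 on the plus strand, with 1 GC box (in capitals) that begins 14 bases before the start.
Slc25a5: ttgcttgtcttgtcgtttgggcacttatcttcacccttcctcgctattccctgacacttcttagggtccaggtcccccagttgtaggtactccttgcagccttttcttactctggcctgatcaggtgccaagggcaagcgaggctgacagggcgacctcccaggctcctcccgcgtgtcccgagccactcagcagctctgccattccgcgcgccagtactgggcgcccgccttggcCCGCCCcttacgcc
The deposited counts are per gene, so which of the 3 starts of Slc25a25 was used cannot be read from them. On either strand, the CRE was found in 2 member windows (4.35%; Slc25a25 and Slc25a36) and in 1.55% of all 32851 windows. GC boxes (GGGCGG) were in 69.6% of member windows and 32.7% of all, CCAAT in 45.7% and 33.8%, TATAAA in 4.35% and 12.4%, the core of the NRF1 site (GCATGCGC) in 4.35% and 2.26%, and the half-site of estrogen-related receptors (AAGGTCA) in 2.17% and 4.08%. The MEF2 box was in 0 member windows and 2.92% of all. A match is a run of letters and not a bound site.

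The aspartate-glutamate carrier feeds the malate-aspartate shuttle, which brings the electrons of cytosolic NADH into the matrix. Slc25a12, the muscle and brain form on chromosome 2 from 71271063 to 71367749, had 487, 542 and 449 CPM in Ctrl-labelled libraries and 629, 611 and 661 CPM in cKO-labelled ones. The groups did not overlap, and the gene was higher in cKO-labelled libraries (log2 fold change 0.36, SE 0.10, adjusted p = 0.0388, edgeR). This call was lost in each of the 6 fits that leave out 1 library, with an adjusted p of up to 0.149, and under total counts (log2 fold change 0.11, adjusted p = 0.437, edgeR). Slc25a13, the liver form, ranged from 1.34 to 3.01 CPM and from 0.734 to 2.18 CPM (log2 fold change -0.83, SE 0.46, adjusted p = 0.23, edgeR), and Slc25a12 made up 99.1% and 99.6% of the pair's summed RPKM in Ctrl-labelled and cKO-labelled libraries. The glutamate carriers Slc25a18 and Slc25a22 had log2 fold changes of -0.23 and -0.23 and were not called.

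The enzymes of the NADH shuttles did not follow their carriers as a block. The cytosolic Gpd1 and the inner membrane Gpd2 of the glycerol phosphate shuttle, which needs no carrier of this family, were higher in cKO-labelled libraries (log2 fold changes 1.56 and 1.82, adjusted p = 0.0063 and 0.0086, edgeR). Cytosolic malate dehydrogenase Mdh1 was higher in Ctrl-labelled ones (log2 fold change -0.66, adjusted p = 0.0273, edgeR). Gpd1 and Gpd2 were called in all 6 fits that leave out 1 library and Mdh1 in 2 (adjusted p of up to 0.0988). Mdh2, Got1 and Got2 gave log2 fold changes of 0.09, -0.46 and -0.21 and were not called (Got1 was under total counts, at -0.71), and neither was Slc25a11, the oxoglutarate partner of Slc25a12 in the shuttle, at 291, 308 and 236 CPM against 268, 304 and 282 CPM (log2 fold change 0.03, SE 0.12, with a negative sign under total counts and without Ctrl 3 or cKO 2).

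**Figure D3:**
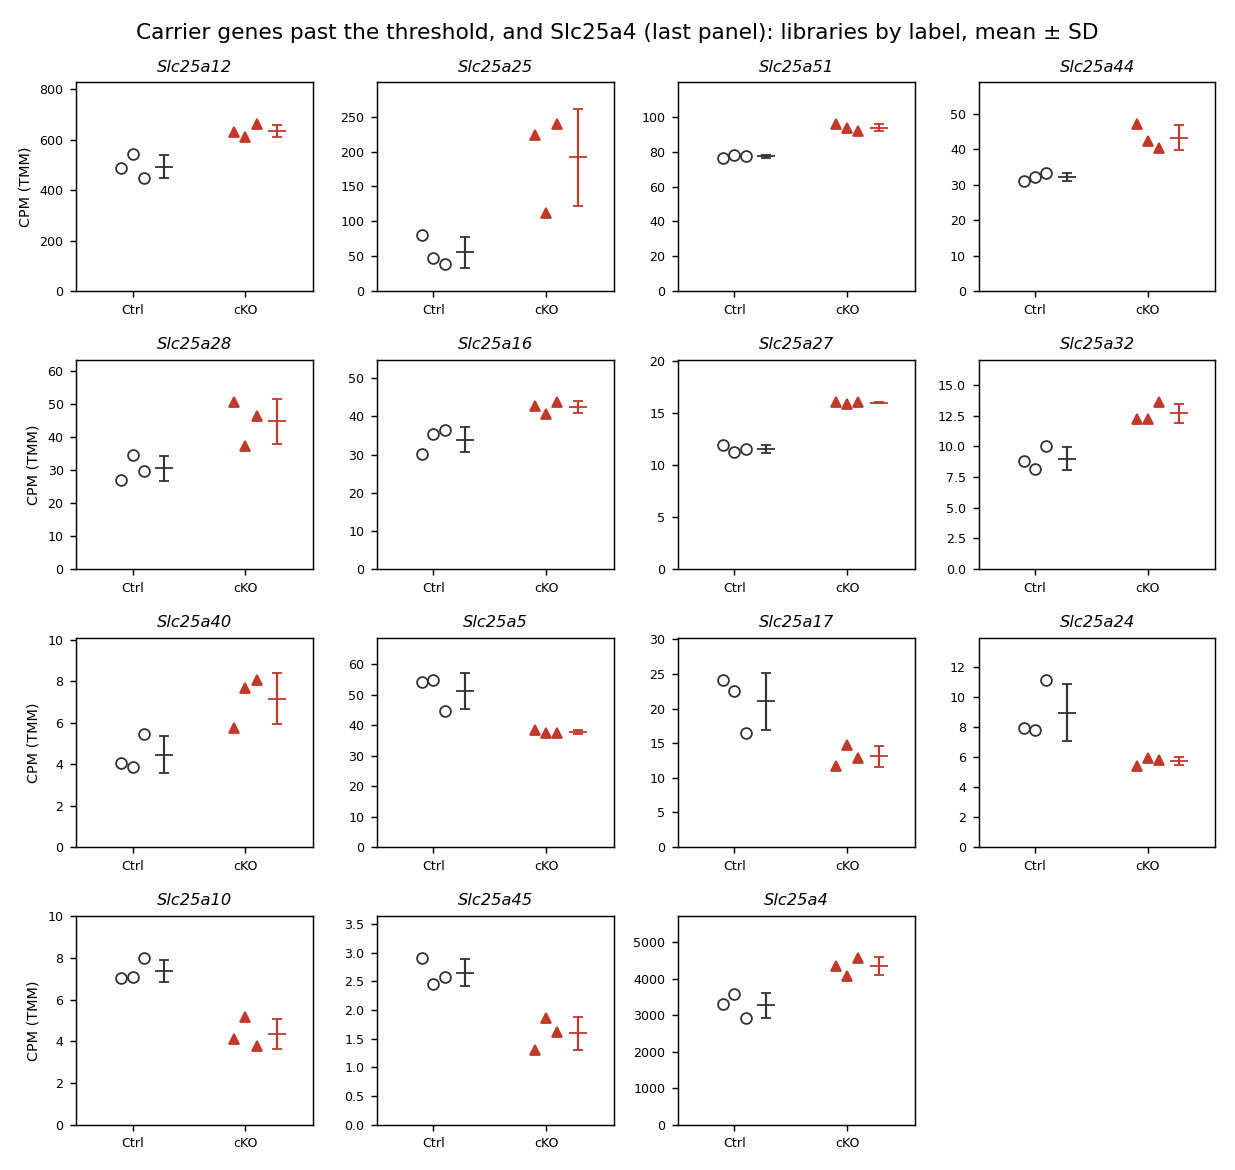
CPM (TMM) in each library for 14 of the called members and, in the last panel, Slc25a4, with mean ± SD of 3 libraries beside the points (circles, labelled Ctrl; triangles, labelled cKO). No panel has overlapping groups, and Slc25a25 shows the widest spread within the cKO-labelled libraries as a ratio of highest to lowest, 2.13-fold (112 to 239 CPM).

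Of the di- and tricarboxylate carriers, Slc25a10, which exchanges malate or succinate for phosphate, was the one called. It lies on chromosome 11 from 120491840 to 120499187 on the plus strand. It had 7.05, 7.07 and 8.01 CPM in Ctrl-labelled libraries and 4.12, 5.17 and 3.79 CPM in cKO-labelled ones. The groups were well apart, and the gene was 1.69-fold higher in Ctrl-labelled libraries (log2 fold change -0.76, SE 0.15, adjusted p = 0.0133, edgeR). An antisense gene covers 6.60% of its exon bases. The citrate carrier Slc25a1 ranged from 5.04 to 7.19 CPM and from 3.39 to 5.35 CPM and was not called (log2 fold change -0.39).

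Of the carnitine and basic amino acid carriers, 1 of 5 tested was called (20%), near the 24.4% of all genes. Slc25a20, which carries acylcarnitines for fatty acid oxidation, had 109, 103 and 72.7 CPM in Ctrl-labelled libraries and 93.3, 106 and 78.6 CPM in cKO-labelled ones. The groups overlapped throughout (log2 fold change -0.04, SE 0.17, adjusted p = 0.897, edgeR), and the sign changed without Ctrl 1, Ctrl 2 or cKO 3 and with Myh7 as a covariate. Slc25a45 had 2.91, 2.46 and 2.57 CPM against 1.30, 1.87 and 1.61 CPM and was higher in Ctrl-labelled libraries (log2 fold change -0.73, SE 0.19, adjusted p = 0.0343, edgeR), a call lost in 5 of the 6 fits that leave out 1 library, with an adjusted p of up to 0.115. The ornithine carrier Slc25a15, the basic amino acid carrier Slc25a29 and Slc25a47 had log2 fold changes of 0.08, -0.50 and 0.56 and were not called. Around Slc25a20, Cpt2 and Crat were not called either (log2 fold changes 0.01 and 0.18), while Cpt1b was higher in Ctrl-labelled libraries at 2.48 to 6.05 CPM over all libraries (log2 fold change -0.80, adjusted p = 0.0397, edgeR), with 81.4% of its exon bases shared with a readthrough gene on the same strand and the call kept in 1 of 6 fits with 1 library left out. Of the 6 genes of the carnitine system tested, total counts called 3 higher in Ctrl-labelled libraries in place of 1 (edgeR).

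Among carriers of iron, glycine and glutathione, 2 of 5 were higher in cKO-labelled libraries and 0 in Ctrl-labelled ones, where 24.4% of all genes were called in either direction. Slc25a28, the mitoferrin of most tissues, had 27.0, 34.6 and 29.8 CPM in Ctrl-labelled libraries and 50.5, 37.1 and 46.3 CPM in cKO-labelled ones, with cKO 2 nearest to the other group (log2 fold change 0.55, SE 0.14, adjusted p = 0.0287, edgeR, up to 0.0979 with 1 library left out, which lost the call in 4 of 6 fits). Slc25a40, a relative of Slc25a39, had 4.03, 3.86 and 5.47 CPM against 5.76, 7.66 and 8.07 CPM (log2 fold change 0.69, SE 0.19, adjusted p = 0.0397, edgeR, up to 0.132 and lost in 4 of 6). Both groups of both genes were disjoint. The erythroid mitoferrin Slc25a37 was not called (log2 fold change 0.24, adjusted p = 0.0976, edgeR). Slc25a39, at 50.9, 55.6 and 52.6 CPM against 51.9, 46.7 and 50.0 CPM, and the glycine carrier Slc25a38 had log2 fold changes of -0.10 and -0.18 and were not called. Total counts turned this split around: Slc25a28 and Slc25a40 were no longer called (log2 fold changes 0.29 and 0.44, adjusted p = 0.0833 and 0.14, edgeR), and Slc25a39 and Slc25a38 were called higher in Ctrl-labelled libraries (-0.35 and -0.44, adjusted p = 0.0105 and 0.0204, edgeR).

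Among the carriers of cofactors and nucleotides, calls in both directions were seen. Slc25a32, the folate and flavin carrier, had 8.84, 8.13 and 10.01 CPM in Ctrl-labelled libraries and 12.2, 12.3 and 13.6 CPM in cKO-labelled ones (log2 fold change 0.50, SE 0.11, adjusted p = 0.0192, edgeR). Slc25a16, a carrier linked to coenzyme A, had 30.1, 35.3 and 36.4 CPM against 42.8, 40.7 and 43.8 CPM (log2 fold change 0.32, SE 0.09, adjusted p = 0.039, edgeR). Slc25a51, which imports NAD, had 76.5, 78.0 and 77.2 CPM against 95.8, 93.6 and 92.1 CPM (log2 fold change 0.28, SE 0.06, adjusted p = 0.0209, edgeR). In all 3 genes every library labelled cKO was above every library labelled Ctrl, and for Slc25a51 the difference was small but the replicates were within 1.04-fold of each other. Each of the 3 calls was lost in 4 of the 6 fits that leave out 1 library, with adjusted p of up to 0.0759, 0.127 and 0.0777, and under total counts.

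Slc25a17, the peroxisomal carrier of coenzyme A and adenine nucleotide cofactors, went the other way. It had 24.2, 22.6 and 16.4 CPM in Ctrl-labelled libraries and 11.7, 14.7 and 12.9 CPM in cKO-labelled ones. Ctrl 3 lay nearest to the other group, without overlap (log2 fold change -0.69, SE 0.16, adjusted p = 0.0233, edgeR, up to 0.0832 and lost in 4 of the 6 fits that leave out 1 library). Also in this role, the S-adenosylmethionine carrier Slc25a26, the pyrimidine nucleotide carriers Slc25a33 and Slc25a36 and the coenzyme A carrier Slc25a42, had log2 fold changes from -0.23 to 0.07 and were not called, although Slc25a42 was higher in Ctrl-labelled libraries under total counts (log2 fold change -0.40, adjusted p = 0.0373, edgeR).

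Slc25a44, which imports branched-chain amino acids, had 31.0, 32.2 and 33.3 CPM in Ctrl-labelled libraries and 47.02, 42.1 and 40.2 CPM in cKO-labelled ones. All cKO-labelled libraries were above all labelled Ctrl (log2 fold change 0.42, SE 0.08, adjusted p = 0.0124, edgeR), and 5 of the 6 fits that leave out 1 library kept the call, with an adjusted p of up to 0.0538. Under total counts Slc25a44 was not called (log2 fold change 0.17, adjusted p = 0.145, edgeR). Of the 6 genes of branched-chain amino acid breakdown tested, the kinase Bckdk, which restrains the pathway, was higher in cKO-labelled libraries (log2 fold change 0.41, adjusted p = 0.0092, edgeR) and 0 were higher in Ctrl-labelled ones. That is 16.7% called, against 24.4% of all genes. Bcat2, the first enzyme of the pathway, had a log2 fold change of -0.27 and was not called. The split of 1 and 0 became 0 and 4 under total counts, where 673 and 4074 of all 14180 genes were called in these directions. There Bckdk was not called and Bcat2, Bckdhb, Dbt and Ppm1k were higher in Ctrl-labelled libraries (log2 fold changes -0.52, -0.61, -0.64 and -0.81, edgeR).

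The relatives of the uncoupling proteins gave 1 call among 3, too few to set against the 24.4% of all genes. Slc25a27, best known from brain, had 11.95, 11.2 and 11.5 CPM in Ctrl-labelled libraries and 16.1, 15.9 and 16.1 CPM in cKO-labelled ones. Both groups were tight, and the call held in all 6 fits that leave out 1 library (log2 fold change 0.47, SE 0.08, adjusted p = 0.00789, edgeR, up to 0.0384). Under total counts Slc25a27 was not called (log2 fold change 0.21, adjusted p = 0.123, edgeR). Slc25a30 had 5.44, 7.89 and 3.42 CPM in Ctrl-labelled libraries and 22.9, 6.28 and 29.3 CPM in cKO-labelled ones. Its log2 fold change, 1.80, was the highest of the members, but cKO 2 lay among Ctrl-labelled libraries and the gene was not called (SE 0.55, adjusted p = 0.0523, edgeR). DESeq2, the fit without an expression filter and the fit without cKO 2 did call it. Slc25a14 had a log2 fold change of 0.28 and was not called.

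Slc25a25, Slc25a30 and the uncoupling protein gene Ucp3, a carrier of the same family under another symbol, had a like order within cKO-labelled libraries. Ucp3 had 118, 88.7 and 84.4 CPM in Ctrl-labelled libraries and 249, 121 and 316 CPM in cKO-labelled ones (log2 fold change 1.24, adjusted p = 0.0342, edgeR), a call kept only without cKO 2 when 1 library was left out (adjusted p of up to 0.105). In each of the 3 genes cKO 3 was the highest and cKO 2 the lowest of cKO-labelled libraries. Myh7 had the reverse order there, with 494, 974 and 75.3 CPM, after 3676, 1723 and 2219 CPM in Ctrl-labelled libraries (log2 fold change -2.30, adjusted p = 0.0742, edgeR). These genes were set side by side after their values were seen, and whether fibre type has a part in them was not tested beyond the covariate, under which the log2 fold change of Slc25a25 was 1.34 (adjusted p = 0.317, edgeR), that of Slc25a30 0.40 (adjusted p = 0.817) and that of Ucp3 0.44 (adjusted p = 0.669).

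**Figure D4:**
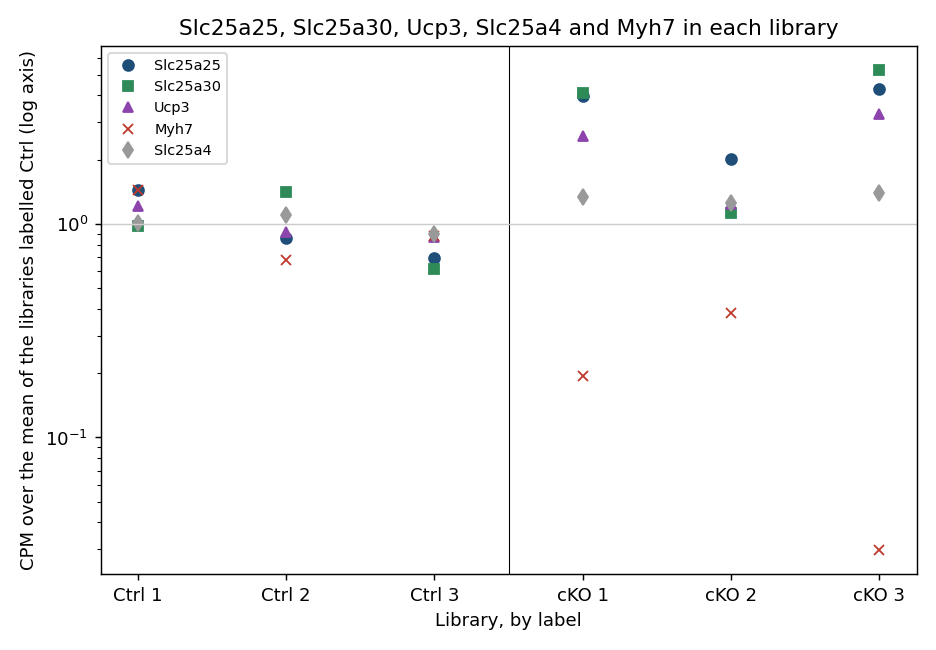
CPM of Slc25a25, Slc25a30, Ucp3, Slc25a4 and Myh7 in each library, divided by the gene's mean over the Ctrl-labelled libraries, on a log axis. In the cKO-labelled libraries, the first 3 genes are lowest in cKO 2, where Myh7 is highest at 974 CPM, and Slc25a4 varies little, from 4077 to 4569 CPM.

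The little-characterised members gave 0 calls among 4 tested (edgeR, with 0 of them below an unadjusted p of 0.05 and 0 called by DESeq2), where 24.4% of all genes were called, so a count of 0 among so few says little about them. Slc25a46 had 69.9, 71.5 and 66.3 CPM in Ctrl-labelled libraries and 71.3, 70.4 and 74.7 CPM in cKO-labelled ones, overlapping values that differed little (log2 fold change 0.06, SE 0.07, with a negative sign under total counts and with Myh7 as a covariate). Slc25a34 spread 3.02-fold among the Ctrl-labelled libraries, from 9.24 to 27.9 CPM. Slc25a35 and Slc25a53 had log2 fold changes of -0.28 and 0.77. The last was at 0.301 to 1.11 CPM over all libraries, and 31.3% of the exon bases of Slc25a35 lie opposite another gene, so without knowing the strand used in counting the reads cannot be told apart.

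Of the other family members listed under their own names, Ucp2, expressed broadly and in immune cells, was higher in Ctrl-labelled libraries (log2 fold change -1.05, adjusted p = 0.0043, edgeR), beside the immune markers that moved the same way. Mtch1, a carrier relative of the outer membrane, was also higher there (log2 fold change -0.34, adjusted p = 0.0222, edgeR; up to 0.082 with 1 library left out, called in 2 of 6 fits). Mtch2 was not called (log2 fold change 0.14), and Ucp1, the uncoupling protein of brown fat, stood at 0 to 0.796 CPM.

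The voltage-dependent anion channels are the route of metabolites through the outer membrane, in series with the carriers. All 3 were higher in cKO-labelled libraries. Vdac1 had 1160, 1287 and 1169 CPM in Ctrl-labelled libraries and 1737, 1709 and 1786 CPM in cKO-labelled ones (log2 fold change 0.53, adjusted p = 0.0103, edgeR). Vdac2 and Vdac3 had log2 fold changes of 0.34 and 0.62 (adjusted p = 0.0273 and 0.0046, edgeR), and the groups did not overlap in any of these genes. Under total counts Vdac3 was still called, while Vdac1 and Vdac2 kept their direction at log2 fold changes of 0.28 and 0.08 without the call (adjusted p = 0.0574 and 0.457, edgeR). With 1 library left out, Vdac3 was called in all 6 fits, Vdac1 in 5 (not without cKO 3, adjusted p = 0.0533) and Vdac2 in 1 (adjusted p of up to 0.116).

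Of 22 other transporters of the inner membrane, 2 were higher in cKO-labelled libraries and 5 in Ctrl-labelled ones (31.8%, against 24.4% of all genes; 1 and 11 under total counts), and those named here were chosen after their values were seen. The calcium uniporter pore Mcu and its regulator Micu2 were higher in Ctrl-labelled libraries (log2 fold changes -0.50 and -0.81, adjusted p = 0.011 and 0.0024, edgeR). So were Ccdc109b, which encodes the inhibitory pore paralog, at 0.536 to 1.94 CPM (log2 fold change -1.25, adjusted p = 0.0204, edgeR), and the sodium-calcium exchanger Slc8b1 (log2 fold change -0.32). Micu3, another regulator, and Ghitm were higher in cKO-labelled libraries (log2 fold changes 0.97 and 0.30). Mcu, Micu2 and Micu3 were called in all 6 fits that leave out 1 library, Ccdc109b in 4, Slc8b1 in 1 and Ghitm in 0, with an adjusted p of up to 0.141 among these genes, and Ghitm was not called under total counts (log2 fold change 0.04). The pyruvate carrier genes Mpc1 and Mpc2 were not called (log2 fold changes 0.25 and 0.13).

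Adenylate and creatine kinases handle the nucleotides that the carriers move. Ak3 was higher in cKO-labelled libraries and Ak4 in Ctrl-labelled ones (log2 fold changes 0.45 and -1.15, adjusted p = 0.0192 and 0.01, edgeR). Of the exon bases of Ak3, 22.85% lie opposite other genes, and the strand used in counting is not known. Mitochondrial creatine kinase Ckmt2 ranged from 1095 to 1757 CPM and from 1122 to 1333 CPM and was not called (log2 fold change -0.34). Among 6 ornithine and citrate partners tested, Oat was higher in cKO-labelled libraries (log2 fold change 0.42) and the mitochondrial isocitrate dehydrogenase Idh2 in Ctrl-labelled ones (log2 fold change -1.42, adjusted p = 0.0233, edgeR). Of these, Ak4 was called in all 6 fits that leave out 1 library, Ak3 and Idh2 in 3 and Oat in 1 (adjusted p of up to 0.0815), and Ak3 and Oat were not called under total counts.

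**Figure D5:**
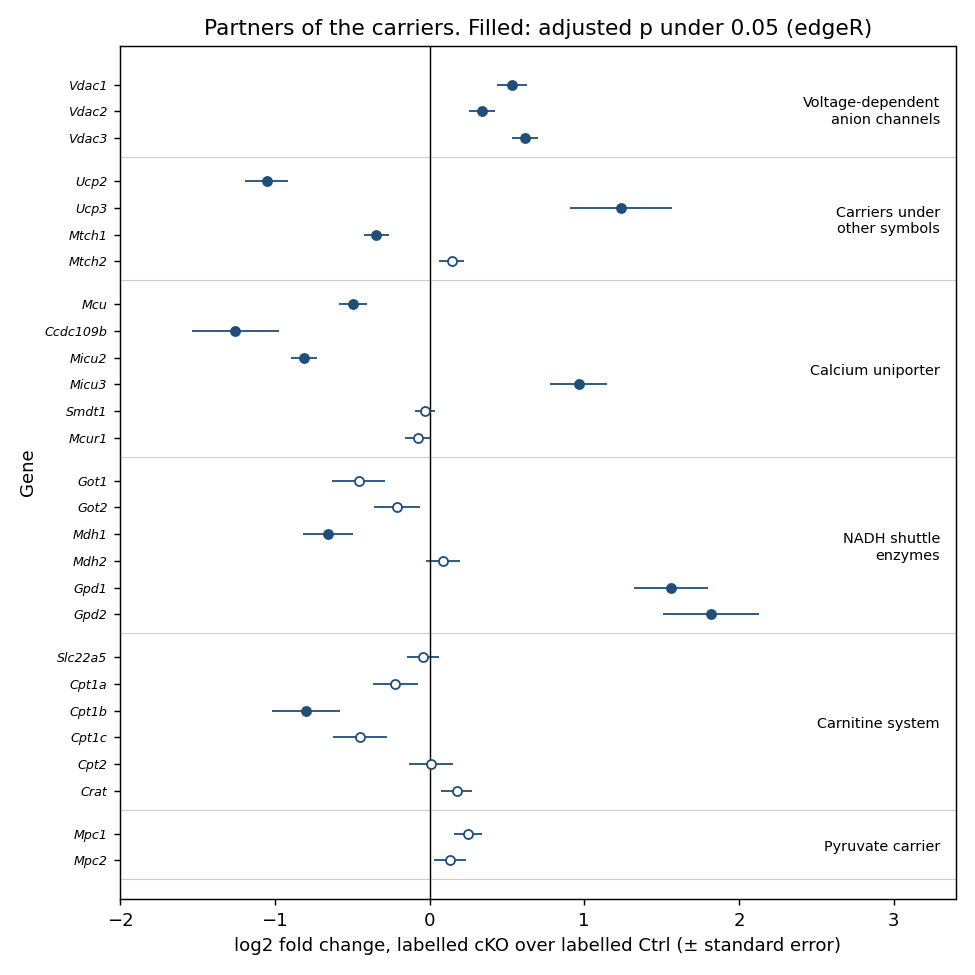
Log2 fold change, labelled cKO over labelled Ctrl, with its standard error for genes that work with the carriers (filled, adjusted p under 0.05 in edgeR; open, not past it). All 3 Vdac genes stand to the right of 0, Mcu and Micu2 to the left, and Gpd1 and Gpd2 at 1.56 and 1.82.

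For comparison, subunits of the respiratory chain and ATP synthase, which share the inner membrane with the carriers, gave 5 calls among 78 tested (6.41%, against 24.4% of all genes). Ndufa12 and Ndufb4 were higher in cKO-labelled libraries and Cox6a1, Cox8a and Ndufb3 in Ctrl-labelled ones, named after their values were seen. Under total counts Ndufa12 and Ndufb4 were not called and 10 subunits were higher in Ctrl-labelled libraries, so that the split of 2 and 3 became 0 and 10 (edgeR). With 1 library left out, Cox8a was called in all 6 fits and the other 4 in 2 to 4, with an adjusted p of up to 0.15. The median log2 fold change over the 78 was 0.07, close to the members' 0.05. The within-group standard deviation of log2 CPM had a median of 0.19 over the members tested and 0.15 over all genes.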

How the data were processed

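Bulk RNA-Seq counts of 6 GP muscle libraries, 3 labelled Ctrl and 3 labelled cKO, each from 1 mouse, were analysed. The authors deposited whole-number counts per gene without normalization, and their submitted processing notes name FastQC 0.11.8, Trimmomatic 0.39, HISAT2 2.1.0, featureCounts 1.6.2 and mm10. The annotation and the use of strand in counting are not given in the sources used here. Conditions follow the sample labels, although Ppapdc3 goes against them.

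Differential expression used edgeR 4.0.16 under R 4.3.3 (TMM, filterByExpr, glmQLFit and glmQLFTest), with Benjamini-Hochberg adjustment over all 14180 genes tested, and genes were called at an adjusted p under 0.05. Standard errors were derived from the F statistic. p-values measure the spread between these mice only. RPKM is TMM-scaled CPM per kilobase of merged exons in GENCODE M21, where 23376 symbols matched directly and 670 by an older symbol. For ratios, shares and sums an exact permutation test was used, two-sided. Replicates differed by more than counting error (chi-square per degree of freedom 29.5 to 101). The edgeR step was tested on simulated data. The members and gene lists were chosen with earlier results of these data known. Named were called members, the 10 members with the highest mean RPKM, and listed partners. A few genes that meet this rule are left out of the text and plots, and the counts still include them. Alternatives were other scalings and filters, DESeq2 1.42.0, a robust fit, a limit of 1.2-fold (glmTreat), a block by mouse number, Myh7 as a covariate and each library left out in turn. Coding windows come from GENCODE M21 and promoters from RefSeq.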

Additional observations from a re-analysis of the deposited data

How the results depend on the processing

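Of the 15 calls among the members, DESeq2's size factors, a minimum of 10 counts in every library, no filter, DESeq2's Wald test and edgeR's robust fit each kept all 15, and no alternative changed their direction. Outside the family, 39 genes of the lists were called, of which total counts changed the sign of 0 and lost 8. Total counts gave 2 members higher in the libraries labelled cKO and 9 higher in those labelled Ctrl, against 673 and 4074 of all genes, and moved the difference in summed RPKM without Slc25a4 from 33.4 to -79.4. Members called with a fold over 2 numbered 1 in the main test and 2 under total counts, no filter and DESeq2. A test against a fold of 1.2 called 4 members (3 higher in cKO, 1 in Ctrl) and 1420 genes (677 and 743). With Myh7 as a covariate, 0 members were called in either direction (8 at an unadjusted p under 0.05), 0 with a fold over 2, and 57 genes (9 higher in cKO, 48 in Ctrl). The cause was not tested, and the covariate takes 1 of 4 residual degrees of freedom. The log2 fold changes of Slc25a5, Slc25a24, Slc25a27, Slc25a44 and Slc25a51 stayed within 0.1 of those without it. Those of the other called members were smaller in size with it.

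Leaving out 1 library gave 4 to 16 called members, 3 to 9 with cKO higher and 1 to 7 with Ctrl higher, 0 to 3 with a fold over 2, and 1560 to 3585 called genes (766 to 1777 and 788 to 1808). Fewer samples are part of each such fit. The difference in summed RPKM without Slc25a4 ranged from -5.20 to 54.7. Genes near 0 changed sign. Slc25a11 went to -0.22 and Slc25a46 to -0.20 under total counts, and with Myh7 as a covariate Slc25a46 went to -0.0074 and Slc25a20 to 0.29. With 1 library left out, log2 fold changes ran from -0.072 (without Ctrl 3) to 0.11 for Slc25a11, from -0.20 to 0.076 (without Ctrl 1) for Slc25a20 and from -0.14 to 0.021 (without Ctrl 2) for Slc25a3.

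The labels do not say that mouse numbers pair the samples. Same-numbered samples had correlations of their deviations of 0.0848, -0.242 and -0.00992, and not every sample correlated best with its own number. With 3 mice in a group, such correlations cannot exclude a pairing. With the number as a replicate block, 8 members were called (5 higher in cKO, 3 in Ctrl) and 1899 genes (927 and 972). The 7 untested members had at most 9 counts in a library, too few at this depth.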
